A study of Mus musculus with 24 samples.

Results

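The ventral hippocampus of daughters of nicotine-treated and saline-treated male mice was compared across all expressed genes. The comparison used 6 of the 24 libraries in the series: 3 from daughters of males that had received nicotine chronically (nicotine-sired) and 3 from daughters of males that had received saline chronically (saline-sired). Libraries were chosen by their labels for region, sex and paternal treatment, with no measured value. All animals were C57BL/6J, and each gave 1 dorsal and 1 ventral library. The other libraries used were the dorsal hippocampus of the same 6 daughters and the ventral hippocampus of 6 sons, 3 nicotine-sired and 3 saline-sired. The daughters and sons themselves carried no treatment in the labels, and the sources used here do not give the age of the offspring, the nicotine dose or the number of sires.

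The ventral hippocampus is the pole of the hippocampus that connects with the amygdala, hypothalamus and prefrontal cortex, and it is known for its part in anxiety-like behaviour and in the control of the stress hormone axis. It carries many receptors for glucocorticoids, the adrenal steroids that enter cells, bind the glucocorticoid receptor and switch on a set of target genes. Nicotine acts on nicotinic acetylcholine receptors, ion channels built from several subunits, some of which are abundant in this region.

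Libraries held 32049770 to 43125342 counts among the 6 ventral libraries of daughters, and 19224 genes passed the filter on low counts. Xist and Ddx3y levels fitted the labelled sex. Of 16 genes known to be more active in the ventral than in the dorsal pole, 14 had a higher mean in the ventral than in the dorsal libraries of the daughters, and 13 were higher in all 6 animals. The number in the library titles differs between the nicotine-sired and the saline-sired daughters, and between these and both groups of sons. Whether it marks a sire or a litter is not given in the sources used here. Such a unit thus cannot be told apart from the sire treatment or, in the comparison with sons, from sex. The p-values below therefore measure the spread between libraries. In bulk tissue, fewer cells of a type and less RNA per cell cannot be told apart.

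Several libraries stood apart in genes of neighbouring tissue. Ttr, which encodes the thyroid hormone carrier transthyretin and is made in large amounts by the choroid plexus, was at 80.9, 1789 and 1646 CPM (counts scaled to a library of 1000000) in nicotine-sired daughters A, B and C, and at 48.0, 47.3 and 144 CPM in saline-sired daughters A, B and C. Nicotine-sired daughters B and C were thus far above the other 4 libraries, while A lay within the range of the saline-sired group. Lamp5, a marker of upper-layer cortical neurons and some interneurons, was at 149 CPM in nicotine-sired daughter A and between 28.0 and 42.5 CPM in the other 5. Chrna3, a nicotinic receptor subunit abundant in the medial habenula, was at 6.96 CPM in saline-sired daughter C and between 0.434 and 0.559 CPM in the others. The fold changes in daughters were also computed without nicotine-sired daughters B and C and with the choroid plexus level in the model. That level (mean log2 CPM) was 4.11 and 4.39 in nicotine-sired daughters B and C. It was at most 1.46 in the other ventral libraries. The model with this level thus rests mainly on nicotine-sired daughter A, so these settings are not separate checks.

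Few genes passed the threshold, and all of them were lower in the nicotine-sired daughters. Of 19224 genes tested, 6 (0.0312%) had an adjusted p under 0.05 in edgeR's quasi-likelihood test with Benjamini-Hochberg adjustment, which was used for all adjusted p-values here. No gene passed in the higher direction. At an unadjusted p under 0.05 there were 1390 genes with higher values (7.23% of those tested) and 1278 with lower values (6.65%). The groups did not overlap for 1868 genes with higher values (9.72%) and 1952 with lower values (10.2%). The median log2 fold change (nicotine-sired over saline-sired, as in all folds below unless stated) over all genes was 0.00. The 6 genes were Tsc22d3, Cirbp, Eml2, Gm42418, G530011O06Rik and Gm15726. DESeq2 called 276 genes, 157 higher and 119 lower, among them these 6.

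Single libraries decided how many genes passed. Without nicotine-sired daughter B or without saline-sired daughter C no gene passed, with 2064 and 1744 genes at an unadjusted p under 0.05. Without saline-sired daughter B 2 passed, both of them among the 6. Without nicotine-sired daughter C 4 passed, and only 1 of the 6 (Tsc22d3) was among them. Without nicotine-sired daughter A 114 passed, 107 of them higher, and these included the same 6. Sons share the estimate of the spread: without nicotine-sired son A 51 genes passed. Without saline-sired daughter A, or without saline-sired son C, 11 passed. Without both nicotine-sired daughters with high choroid plexus transcripts, B and C, 50 genes passed, and none of the 6 was among them, although each kept its sign. That fit has 1 nicotine-sired daughter left, which is assumed to vary like the other groups. With only the 6 libraries compared, 10 genes passed, and Eml2, G530011O06Rik and Gm42418 were not among them (adjusted p 0.0908, 0.119 and 0.106). With all 24 libraries in 1 fit 19 passed, and Gm42418 was not among them (adjusted p 0.339). With the choroid plexus level in the model 51 passed, 46 of them higher, and 2 of the 6 (Tsc22d3 and Eml2) were among them. That fit also rests mainly on nicotine-sired daughter A. Among 102 genes named or open to naming, 21 more passed without nicotine-sired daughter A and 18 more without nicotine-sired son A.

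Tsc22d3, which encodes the glucocorticoid-induced leucine zipper protein GILZ, was at 55.9, 52.7 and 59.1 CPM in nicotine-sired daughters A, B and C and at 90.0, 88.7 and 88.1 CPM in saline-sired daughters A, B and C. The 6 libraries formed separate groups, with the saline-sired values within a narrow range. Its log2 fold change was -0.67 ± 0.09 (SE, 3 libraries per group; adjusted p 0.0183). The adjusted p was 0.0824 without nicotine-sired daughter B, 0.0632 without saline-sired daughter B and 0.0669 without saline-sired daughter C.

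Cirbp encodes an RNA-binding protein that is made in larger amounts when cells cool. It was at 29.5, 29.7 and 28.8 CPM in nicotine-sired daughters and at 41.3, 45.3 and 45.8 CPM in saline-sired daughters. The groups did not overlap, and the nicotine-sired values were nearly equal. Its log2 fold change was -0.59 ± 0.08 (adjusted p 0.0183). The adjusted p lay between 0.0791 and 0.113 without nicotine-sired daughter B or C or saline-sired daughter B or C, and was 0.0572 with the choroid plexus level in the model.

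Eml2, which encodes a microtubule-associated protein of the EMAP family, was at 108, 124 and 112 CPM in nicotine-sired daughters and at 153, 160 and 175 CPM in saline-sired daughters. The lowest saline-sired library was above the highest nicotine-sired one. Its log2 fold change was -0.50 ± 0.08 (adjusted p 0.0313). It was the least stable of the 6 calls when single libraries were left out: 7 of 12 such fits gave an adjusted p above the threshold (up to 0.145, without nicotine-sired daughter C or saline-sired daughter B), those without nicotine-sired daughter B, saline-sired daughter C, nicotine-sired son C and saline-sired sons A and B among them.

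G530011O06Rik and Gm15726 are neighbouring noncoding genes on the minus strand of chromosome X (GRCm38), at chrX:169975043-169978917 and chrX:169979047-169985232. Both lie within the span of Mid1, a ubiquitin ligase gene on the plus strand, with 951 and 144 bp of exon opposite Mid1 exons. G530011O06Rik was at 2.09, 1.22 and 0.857 CPM in nicotine-sired and at 8.39, 4.46 and 6.90 CPM in saline-sired daughters. Gm15726 was at 0.146, 0.199 and 0.0571 CPM in nicotine-sired and at 1.80, 0.973 and 1.82 CPM in saline-sired daughters. Both genes had every saline-sired library above every nicotine-sired one. Their log2 fold changes were -2.23 ± 0.30 and -3.48 ± 0.49 (adjusted p 0.0183 for both), with adjusted p of 0.117 and 0.0824 without nicotine-sired daughter B, 0.0698 and 0.109 without nicotine-sired daughter C, and 0.0734 and 0.0819 without saline-sired daughter C. Without saline-sired daughter A, Gm15726 had an adjusted p of 0.0529.

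The pair was also high in the dorsal hippocampus of the same saline-sired daughters. Dorsal G530011O06Rik was at 2.44, 1.12 and 1.21 CPM in nicotine-sired and at 7.56, 7.59 and 6.85 CPM in saline-sired daughters (log2 fold change -2.19 ± 0.27, adjusted p 0.0164). Dorsal Gm15726 was at 0.201, 0.0767 and 0.131 CPM in nicotine-sired and at 1.92, 1.68 and 2.14 CPM in saline-sired daughters (-3.75 ± 0.55, adjusted p 0.0428). In ventral libraries of sons, G530011O06Rik was at 1.20, 1.53 and 1.79 CPM in nicotine-sired and at 2.33, 2.85 and 1.98 CPM in saline-sired animals, also separate and lower in the nicotine-sired ones (-0.67 ± 0.30, adjusted p 0.304). Gm15726 lay between 0.0231 and 0.255 CPM in sons over both sire treatments. Saline-sired daughters thus had the highest values of both genes among these libraries. Ventral Mid1 was at 15.9, 14.0 and 14.3 CPM in nicotine-sired and at 14.2, 13.8 and 14.5 CPM in saline-sired daughters, and the groups overlapped (log2 fold change 0.06 ± 0.16, adjusted p 0.899). Dorsal Mid1 was at 19.8, 16.1 and 16.8 CPM in nicotine-sired and at 14.0, 12.9 and 15 CPM in saline-sired daughters, separate and higher in the nicotine-sired ones (0.34 ± 0.13, adjusted p 0.312). The kit marks strand, but the strand setting of the counting is not given in the sources used here.

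Gm42418 is a noncoding gene on chromosome 17 (chr17:39846958-39848788, plus strand) that overlaps a ribosomal RNA gene over 1822 bp on the opposite strand. It was at 1686, 1296 and 1468 CPM in nicotine-sired and at 2503, 2959 and 3574 CPM in saline-sired daughters, without overlap. Its log2 fold change was -1.02 ± 0.13 (adjusted p 0.0183), and the adjusted p was 0.0824, 0.0698, 0.0632 and 0.0669 without nicotine-sired daughters B and C and saline-sired daughters B and C, in that order. Rn7sk, the noncoding RNA that holds back the elongation factor P-TEFb, was at 4.91, 3.47 and 4.74 CPM against 7.06, 7.69 and 9.49 CPM, a log2 fold change of -0.88 ± 0.16 that did not pass (adjusted p 0.0758). Gm26917 and AY036118, followed beside them and scaled over all 24 libraries, did not share a direction. Gm26917 was at 11.9, 13.6 and 16.2 CPM against 22.3, 33.4 and 38.5 CPM. AY036118 was higher in the nicotine-sired daughters, at 5.24, 10.8 and 8.84 CPM against 4.21, 2.72 and 2.16 CPM. Rn7sk has no poly(A) tail, which the kit's mRNA selection relies on, and the part of such transcripts in the other results was not tested.

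**Figure D1:**
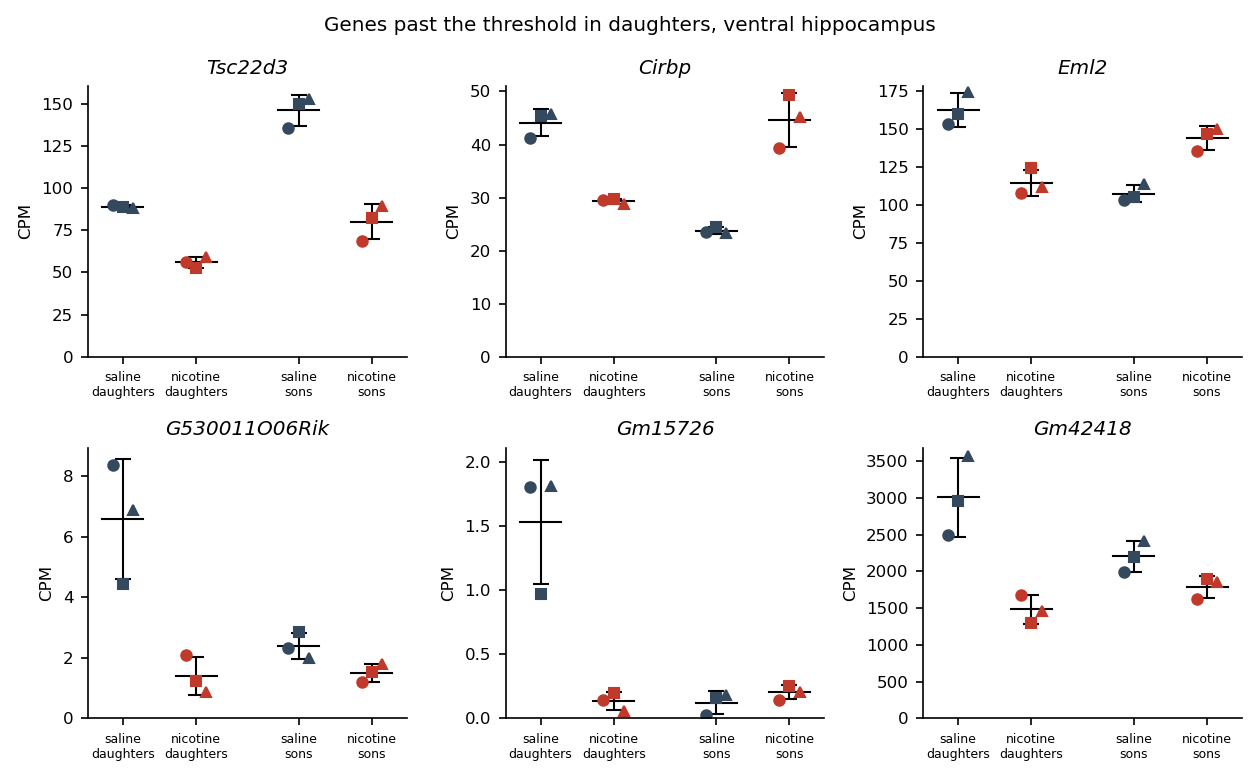
CPM of the 6 genes past the threshold in each ventral library (circle, square and triangle for replicates A, B and C; horizontal line, mean; bars, SD, n = 3), for saline-sired and nicotine-sired daughters and sons. In daughters every nicotine-sired point lies below every saline-sired point. In sons Cirbp and Eml2 have the opposite order, Tsc22d3, G530011O06Rik and Gm42418 have the same order, and Gm15726 overlaps.

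Glucocorticoid-induced genes form the first group, since Tsc22d3 is a direct target of the receptor. Of 24 listed targets, all tested, 1 fell (Tsc22d3). At an unadjusted p under 0.05, 10 had lower values, Tsc22d3 among them, and 1 (Sult1a1) had a higher value, and the list's median log2 fold change was -0.16 beside 0.00 over all genes. Groups did not overlap for 10 targets with lower values and 2 with higher values. Over all genes, 10.2% were lower and 9.72% higher without overlap. At an unadjusted p under 0.05, 6.65% of all genes had lower and 7.23% higher values. The counts of every list below are to be read beside these shares. The median of the glucocorticoid targets was -0.31 with the choroid plexus level in the model and -0.34 without nicotine-sired daughters B and C.

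Hif3a, a hypoxia-inducible factor subunit that glucocorticoids raise, was at 1.82, 1.39 and 2.08 CPM in nicotine-sired and at 2.79, 3.92 and 4.79 CPM in saline-sired daughters. The groups were separate, and the log2 fold change of -1.11 ± 0.20 did not pass (adjusted p 0.0758). Ddit4, an inhibitor of the growth-controlling kinase complex mTORC1, was at 26.9, 32.6 and 32.5 CPM against 39.2, 45.3 and 45.1 CPM. Its log2 fold change was -0.49 ± 0.09 (adjusted p 0.0758), and it passed with the choroid plexus level in the model (-0.70, adjusted p 0.0229). Without nicotine-sired daughters B and C, which leaves A alone, its log2 fold change was -0.68. Arrdc2, an arrestin-domain gene, was at 5.62, 6.48 and 5.6 CPM against 7.43, 8.47 and 8.96 CPM (-0.49 ± 0.10, adjusted p 0.0979). These genes had all nicotine-sired values below all saline-sired ones, as did Nfkbia, the NF-kappaB inhibitor (-0.34 ± 0.08), Klf15, a metabolic transcription factor (-0.32 ± 0.09), and the metallothionein gene Mt2 (-0.59 ± 0.17), with adjusted p between 0.147 and 0.185.

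Sgk1 and Fkbp5, often used as readouts of the receptor, had overlapping groups. Sgk1, a salt- and stress-regulated kinase, was at 38.8, 42.6 and 41.1 CPM in nicotine-sired and at 36.0, 48.3 and 46.7 CPM in saline-sired daughters (-0.09 ± 0.12, adjusted p 0.759). Fkbp5, the co-chaperone that dampens receptor signalling, was at 36.9, 51.2 and 50.5 CPM against 45.8, 68.3 and 58.2 CPM (-0.31 ± 0.16, adjusted p 0.408; -0.62 with the choroid plexus level in the model). The receptor gene Nr3c1 was at 72.3, 59.8 and 63.1 CPM against 58.6, 50.4 and 53.9 CPM. The nicotine-sired values of Nr3c1 all lay above the saline-sired ones, and the difference did not pass (0.26 ± 0.09, adjusted p 0.240).

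The promoter of Sgk1 was the only one among 22 targets with a RefSeq window to hold the letters of the full palindromic glucocorticoid response element, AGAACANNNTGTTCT, in the 250 bases before the start. The motif reads the same on both strands, and 0.00913% of 32851 windows of that length hold it. The window (chr10:21993640-21993889, plus strand, RefSeq, GRCm38.p6) is shown because it carries that element, in capitals.
Sgk1: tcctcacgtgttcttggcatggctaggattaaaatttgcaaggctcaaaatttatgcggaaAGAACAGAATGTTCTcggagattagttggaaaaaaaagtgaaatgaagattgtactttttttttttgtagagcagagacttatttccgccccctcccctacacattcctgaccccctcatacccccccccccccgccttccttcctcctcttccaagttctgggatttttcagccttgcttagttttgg
The match is a description of the letters and not of receptor binding.

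Cold-responsive genes, which encode RNA-binding and splicing factors whose transcripts shift with small changes in temperature, had 1 member that fell (Cirbp). Of 16 members, all tested, 4 (Cirbp among them) had lower and 2 higher values at an unadjusted p under 0.05, with a median log2 fold change of -0.09. Rbm3, the close relative of Cirbp that protects synapses in cooled brains, was at 33.7, 40.2 and 30.6 CPM in nicotine-sired and at 46.1, 59.6 and 60.3 CPM in saline-sired daughters. The groups were separate (-0.67 ± 0.12), and the adjusted p was 0.0672. Rsrp1, a serine- and arginine-rich protein gene, was at 70.4, 64.3 and 74.6 CPM against 95.0, 88.4 and 93.3 CPM, also separate (-0.40 ± 0.08, adjusted p 0.0933).

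Circadian clock genes run a loop in which ARNTL (BMAL1) with CLOCK or NPAS2 binds E-boxes and drives genes such as Dbp and Ciart. None of 20 passed, and 3 had higher and 3 lower values at an unadjusted p under 0.05. Arntl was at 25.9, 22.6 and 24 CPM in nicotine-sired and at 18.1, 18.7 and 18.8 CPM in saline-sired daughters, with no overlap (0.38 ± 0.07, adjusted p 0.0930). Npas2 was at 41.0, 35.5 and 39.3 CPM against 34.5, 26.0 and 25.1 CPM, again higher in each nicotine-sired library (0.43 ± 0.12, adjusted p 0.174).

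The output genes lay in the other direction. Dbp, a clock-driven transcription factor, was at 50.5, 47.8 and 45.3 CPM in nicotine-sired and at 80.0, 64.5 and 84.5 CPM in saline-sired daughters (-0.67 ± 0.14, adjusted p 0.108). Dbp has 539 bp of exon opposite Sphk2, so its counts are uncertain if strand was not used. Ciart, a repressor of the loop, was at 7.39, 6.65 and 5.83 CPM against 9.03, 8.50 and 8.66 CPM (-0.40 ± 0.13, adjusted p 0.214). Both genes had separate groups. The time of day at which tissue was taken is not given in the sources used here.

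The E-box CACGTG, which reads the same on both strands, was in the 250-base windows of 5 of 18 clock genes and in 6.02% of all 32851 windows. That of Ciart (chr3:95882229-95882478, minus strand, RefSeq, GRCm38.p6) is shown because it held 3 of them, in capitals.
Ciart: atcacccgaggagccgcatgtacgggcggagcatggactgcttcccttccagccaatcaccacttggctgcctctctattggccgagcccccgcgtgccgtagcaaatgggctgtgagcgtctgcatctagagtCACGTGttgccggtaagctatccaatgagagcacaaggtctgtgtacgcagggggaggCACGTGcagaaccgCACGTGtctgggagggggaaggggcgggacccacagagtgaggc
No binding was measured at these letters.

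Endoplasmic reticulum chaperones fold proteins bound for the membrane or for secretion, and the cell raises them together in the unfolded protein response. None of 19 passed, 10 had higher and none had lower values at an unadjusted p under 0.05, and 17 had fold changes above 0 (50.1% of all genes did), with a median log2 value of 0.17. The summed CPM of the list was 2593 to 2792 in nicotine-sired and 2307 to 2360 in saline-sired daughters. The groups did not overlap for 8 members, all with higher values. The count at an unadjusted p under 0.05 was 3 with the choroid plexus level in the model (median 0.11) and 2 without nicotine-sired daughters B and C (median 0.13).

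Pdia3, a disulfide isomerase, was at 217, 244 and 234 CPM in nicotine-sired and at 190, 185 and 179 CPM in saline-sired daughters (0.33 ± 0.06, adjusted p 0.0930). Hsp90b1, which encodes the chaperone GRP94, was at 346, 366 and 350 CPM against 303, 286 and 273 CPM (0.30 ± 0.07, adjusted p 0.122). Hspa5, which encodes BiP, the sensor and main chaperone of the compartment, was at 340, 390 and 349 CPM against 296, 324 and 320 CPM (0.20 ± 0.09, adjusted p 0.340). These 3 genes had separate groups with narrow gaps, and so had Calr, which encodes the calcium-binding chaperone calreticulin (0.20 ± 0.08), and Pdia6 (0.16 ± 0.07).

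The endoplasmic reticulum stress element, spelled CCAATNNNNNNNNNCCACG and searched on both strands, is the letter pattern known from promoters of such chaperones. It was in the 250-base windows of 8 of the 17 list members with a RefSeq window and in 0.113% of all 32851 windows. Pdia3, also separate and higher in nicotine-sired daughters, was not among the 8. Capitals below mark the element, and positions are in GRCm38.p6 from RefSeq. The windows of 4 of these 8 members, all with separate groups in daughters, are shown. They lie at chr2:34771840-34772089 on the plus strand (Hspa5), chr10:86705445-86705694 on the minus strand (Hsp90b1), chr8:84846932-84847181 on the minus strand (Calr) and chr12:17266339-17266588 on the plus strand (Pdia6).
Hspa5: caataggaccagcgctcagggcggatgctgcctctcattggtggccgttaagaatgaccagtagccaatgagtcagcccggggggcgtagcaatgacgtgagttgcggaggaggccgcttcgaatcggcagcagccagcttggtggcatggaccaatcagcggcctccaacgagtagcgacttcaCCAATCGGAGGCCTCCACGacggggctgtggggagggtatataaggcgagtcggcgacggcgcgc
Hsp90b1: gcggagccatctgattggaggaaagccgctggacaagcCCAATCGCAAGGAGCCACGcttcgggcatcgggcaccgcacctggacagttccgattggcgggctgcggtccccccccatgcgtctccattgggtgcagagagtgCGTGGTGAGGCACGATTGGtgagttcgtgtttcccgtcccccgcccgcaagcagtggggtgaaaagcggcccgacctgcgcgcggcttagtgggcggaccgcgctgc
Calr: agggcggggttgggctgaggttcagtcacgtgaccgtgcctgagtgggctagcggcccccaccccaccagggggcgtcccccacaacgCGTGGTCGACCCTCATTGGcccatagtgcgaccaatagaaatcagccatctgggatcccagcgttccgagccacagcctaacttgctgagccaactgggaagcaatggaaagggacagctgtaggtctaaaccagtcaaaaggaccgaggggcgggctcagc
Pdia6: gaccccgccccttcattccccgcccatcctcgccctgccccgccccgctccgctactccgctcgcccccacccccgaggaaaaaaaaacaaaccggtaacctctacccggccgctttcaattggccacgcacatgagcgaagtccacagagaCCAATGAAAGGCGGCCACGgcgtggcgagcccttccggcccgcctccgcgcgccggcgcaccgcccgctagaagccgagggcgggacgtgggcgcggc
Calr carries the element on the reverse strand, and Hsp90b1 carries it once on each strand.

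Of 21 cytosolic heat shock proteins and their helpers none passed, 7 had higher and none lower values at an unadjusted p under 0.05, and the median log2 fold change was 0.11. Fold changes were above 0 for 15 and below 0 for 6. The count of 7 was 4 with the choroid plexus level in the model and 2 without nicotine-sired daughters B and C. Stip1, which hands client proteins from HSP70 to HSP90, was at 191, 202 and 183 CPM in nicotine-sired daughters and at 159 CPM in each saline-sired daughter (0.27 ± 0.06, adjusted p 0.129). Chordc1, an HSP90 co-chaperone, was at 60.1, 68.4 and 65.1 CPM against 53.1, 54.1 and 43.6 CPM (0.36 ± 0.08, adjusted p 0.126). The groups were separate for both genes. The stress-inducible genes Hspa1a and Hspa1b had log2 fold changes of -0.21 and -0.24.

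**Figure D2:**
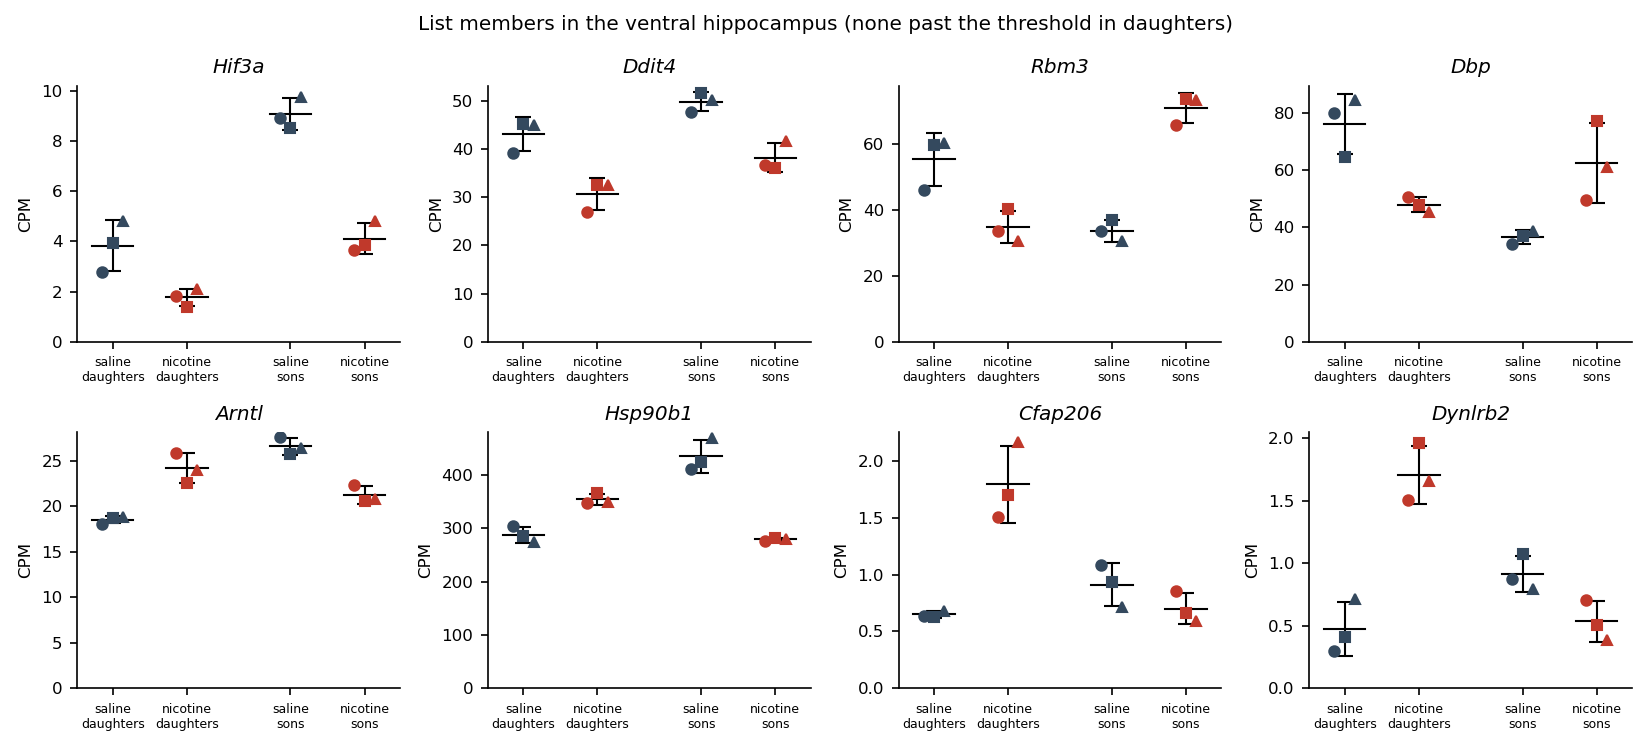
CPM of 8 list members in each ventral library of daughters and sons (circle, square and triangle for replicates A, B and C; horizontal line, mean; bars, SD, n = 3). Hif3a, Ddit4, Rbm3 and Dbp were lower and Arntl, Hsp90b1, Cfap206 and Dynlrb2 higher in every nicotine-sired than in any saline-sired daughter, and none of them passed the threshold in daughters.

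Choroid plexus genes had the largest fold changes and rested on 2 libraries. Of 23 tested list members 20 had higher values at an unadjusted p under 0.05, none passed, and the median log2 fold change was 2.84. The summed CPM of the list ran from 332 to 3113 in nicotine-sired and from 254 to 397 in saline-sired daughters, and the groups did not overlap for 3 members, 2 of them higher. For Ttr the log2 fold change was 3.88 ± 1.08 (adjusted p 0.204).

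Other defining genes of the choroid plexus epithelium followed Ttr. Folr1, the folate carrier of that epithelium, was at 1.24, 12.4 and 15.2 CPM in nicotine-sired and at 0.548, 0.565 and 1.31 CPM in saline-sired daughters. Aqp1, its water channel, was at 0.730, 10.9 and 11.7 CPM against 0.457, 0.596 and 0.952 CPM. Kcnj13, a potassium channel, was at 0.657, 15.9 and 19 CPM against 1.28, 0.565 and 1.01 CPM, and Kl, the ageing-related hormone co-receptor gene, was at 9.48, 67.8 and 73.8 CPM against 8.29, 13.2 and 18.2 CPM. In all 4 genes nicotine-sired daughters B and C were high and A was within the saline-sired range.

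Without nicotine-sired daughters B and C the choroid plexus median was 0.02, and with the list's level in the model it was -0.12. That model adjusts the list for its own mean, so the fall of the median there is built in. An exact permutation test of the list's mean log2 level, two-sided over 6 libraries, gave a p of 0.2, where 0.1 is the smallest that 3 against 3 can give. Without nicotine-sired daughter A, 20 members passed the threshold. Only Enpp2, a lysophospholipase gene also active in oligodendrocytes, and Col8a1, a collagen gene, had all 3 nicotine-sired values above the saline-sired ones.

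Motile cilia genes, which build the beating cilia of the ependymal cells that line the ventricles and also of the choroid plexus, had a higher mean level in each of the 3 nicotine-sired daughters than in any saline-sired one. None of 27 passed, 13 had higher and none lower values at an unadjusted p under 0.05, and the median log2 fold change was 0.66. Dynlrb2, a dynein light chain gene, was at 1.51, 1.96 and 1.66 CPM in nicotine-sired and at 0.297, 0.408 and 0.714 CPM in saline-sired daughters (1.87 ± 0.32, adjusted p 0.0589). Cfap206, a cilia and flagella protein gene, was at 1.51, 1.70 and 2.17 CPM against 0.640, 0.627 and 0.684 CPM (1.46 ± 0.25, adjusted p 0.0589). Both groups were separate, and nicotine-sired daughter A, with little choroid plexus RNA, was also above the saline-sired libraries.

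Foxj1, the master regulator of motile cilia, was at 6.59, 10.1 and 10.9 CPM against 4.02, 6.84 and 8.24 CPM, with overlap (0.54 ± 0.24, adjusted p 0.342). With the choroid plexus level in the model the log2 fold change of Foxj1 was -0.01, and the median of the cilia list was 0.33. Without nicotine-sired daughters B and C the list's median was 0.36. The exact two-sided permutation p of the list's mean level was 0.1, the smallest possible. Separate groups of 3 libraries always give this value, so it adds nothing to their separation. How far the ventricle lining taken with each piece sets these values was not tested.

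**Figure D3:**
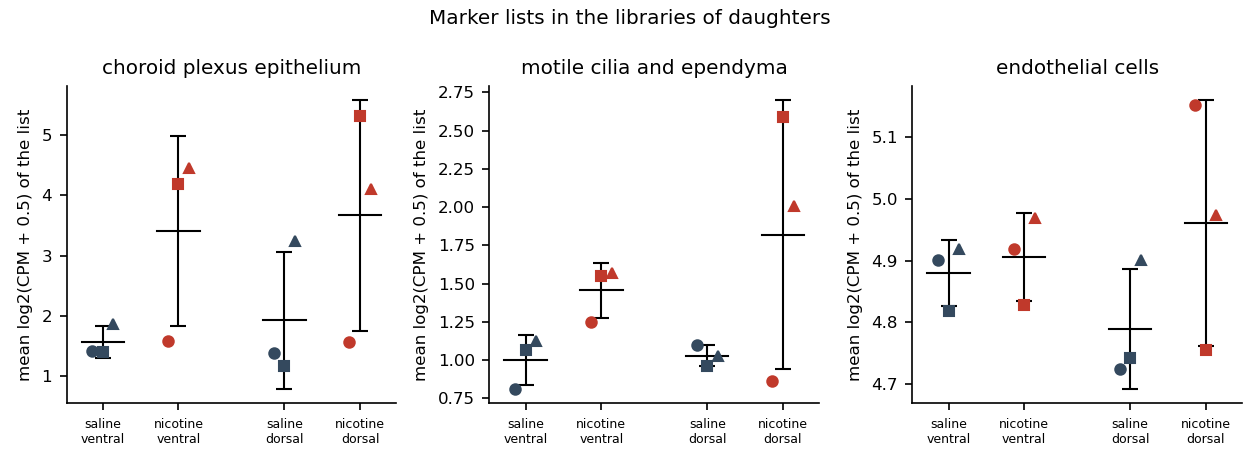
Mean log2(CPM + 0.5) over the members of 3 marker lists in each library of the 6 daughters, ventral and dorsal (circle, square and triangle for replicates A, B and C; horizontal line, mean; bars, SD, n = 3). Choroid plexus levels are high in nicotine-sired daughters B and C in both regions and in the dorsal library of saline-sired daughter C, cilia levels are separate in the ventral groups, and endothelial levels overlap.

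Endothelial genes had no common direction: 9 of 20 had fold changes above 0 and 11 below, and the median log2 fold change was -0.04. At an unadjusted p under 0.05, 4 had higher and none lower values. Kdr, the main receptor for the vessel growth factor VEGF, was at 16.6, 17.0 and 15.5 CPM in nicotine-sired and at 11.5, 11.9 and 12.3 CPM in saline-sired daughters, with separate groups (0.46 ± 0.10, adjusted p 0.117). Flt1, the decoy receptor of the same factor, was at 71.7, 68.6 and 65.0 CPM against 61.7, 59.5 and 56.1 CPM (0.21 ± 0.07, adjusted p 0.214).

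Of 13 pericyte and smooth muscle genes 5 had lower and none higher values at an unadjusted p under 0.05, with a median of -0.31. Gkn3, a gastrokine gene of arterial vessels in the brain, was at 1.39, 1.42 and 1.48 CPM in nicotine-sired and at 2.76, 2.13 and 2.59 CPM in saline-sired daughters (-0.81 ± 0.22, adjusted p 0.159). Myh11, the smooth muscle myosin heavy chain, was at 4.57, 4.72 and 7.37 CPM against 7.68, 8.53 and 9.76 CPM (-0.64 ± 0.18, adjusted p 0.159). Both had separate groups, as had Notch3, a receptor of vessel smooth muscle (-0.31 ± 0.10).

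Of 8 blood cell genes tested, 7 had higher values at an unadjusted p under 0.05 (7.23% of all genes did). The same number had no overlap (9.72% of all genes were higher without overlap), and the median was 0.59. The globin gene Hba-a2 was at 112, 131 and 127 CPM in nicotine-sired and at 71.4, 77.7 and 96.1 CPM in saline-sired daughters (0.59 ± 0.12, adjusted p 0.0933). Alas2, the haem synthesis enzyme of red cells, was at 3.09, 3.64 and 3.83 CPM against 1.46, 2.13 and 1.96 CPM (0.93 ± 0.22, adjusted p 0.130). Hba-a2 has a near-identical copy, Hba-a1 (0.59). How reads that match both were counted is not given, so the split between them is uncertain. How much blood remained in each piece was not tested.

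Among glia, 5 of 15 oligodendrocyte genes had lower and none higher values at an unadjusted p under 0.05, while the median was -0.02. Mag, a myelin adhesion protein gene, was at 106, 107 and 117 CPM in nicotine-sired and at 127, 146 and 142 CPM in saline-sired daughters (-0.33 ± 0.08, adjusted p 0.126). Mog, another myelin surface protein, had a log2 fold change of -0.39 ± 0.10, and Cnp, a myelin enzyme, one of -0.27 ± 0.07 (adjusted p 0.158 for both), with separate groups in each. Mbp, which encodes myelin basic protein, was at 1864, 1994 and 2085 CPM against 1736, 2468 and 2802 CPM, with overlap (-0.24 ± 0.14, adjusted p 0.468). Of 15 astrocyte genes 2 and of 12 oligodendrocyte precursor genes 3 had lower values at that level, beside 6.65% of all genes. Of 15 microglial genes none had lower or higher values at that level. In the dorsal hippocampus of the same daughters all 15 oligodendrocyte genes had fold changes above 0. Their dorsal median was 0.38, and none passed the threshold there.

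Nicotinic receptor subunits did not pass. Of 16 listed subunit genes 11 were tested, and the only one with separate groups was Chrnb2, the beta subunit of the main high-affinity brain receptor, at 48.4, 54.6 and 50.8 CPM in nicotine-sired and 58.3, 58.4 and 57.8 CPM in saline-sired daughters (-0.18 ± 0.07, adjusted p 0.283). Chrnb2 has 1365 bp of exon opposite Adar, so its counts are uncertain if strand was not used. Its partner Chrna4 was at 36.9, 29.3 and 30.4 CPM against 36.7, 22.9 and 28.9 CPM (0.12 ± 0.21, adjusted p 0.825). Chrna7, the homomeric receptor of hippocampal interneurons, was at 9.14, 13.9 and 13.7 CPM against 9.09, 13.9 and 10.9 CPM (0.12 ± 0.24, adjusted p 0.858). Both overlapped, and the sign of Chrna7 turned with the choroid plexus level in the model (-0.23). Chrna3 and Chrnb4, which form the habenular and ganglionic receptor, had log2 fold changes of -2.32 ± 0.99 and -1.71 ± 1.14 and, without saline-sired daughter C, of 0.16 and 1.86.

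Other cholinergic genes had small differences. Chka, a choline kinase, was at 32.7, 31.7 and 33.0 CPM in nicotine-sired and at 40.9, 38.8 and 38.6 CPM in saline-sired daughters (-0.28 ± 0.06, adjusted p 0.117). Ache, which encodes the enzyme that breaks down acetylcholine, was at 37.1, 47.0 and 41.6 CPM against 50.2, 49.4 and 57.5 CPM (-0.32 ± 0.09, adjusted p 0.159). Chrm2, a muscarinic receptor, was at 10.2, 6.39 and 7.42 CPM against 5.57, 6.02 and 6.01 CPM (0.45 ± 0.19, adjusted p 0.311). Its highest value was in daughter A, the library with high Lamp5, and the log2 fold change was 0.23 without A. Groups were separate for these 3 of the 11 tested genes of the muscarinic and acetylcholine turnover list. Ly6h, a membrane protein that limits nicotinic receptor transport, was at 170, 192 and 185 CPM against 211, 240 and 237 CPM (-0.33 ± 0.10, adjusted p 0.185).

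Genes of the GABA-A receptors, the channels of fast inhibition, had small differences. Of 14 subunit genes none passed, 5 had higher and none lower values at an unadjusted p under 0.05, 6 had separate groups with higher values, and the median log2 fold change was 0.20 (0.34 with the choroid plexus level in the model). Of the AMPA and NMDA receptor genes, Gria3 had higher values (0.35 ± 0.09) and Grin2d lower ones (-0.25 ± 0.08), with adjusted p of 0.158 and 0.199.

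Activity and growth genes included Homer1, a postsynaptic scaffold whose short form is induced by activity. It was at 195, 115 and 123 CPM in nicotine-sired and at 94.2, 90.0 and 89.7 CPM in saline-sired daughters, separate groups with nicotine-sired daughter A far above the rest (0.66 ± 0.16, adjusted p 0.148). Without daughters B and C, which leaves A alone, the log2 fold change was 1.10. Without A it was 0.38. Daughter A was also the library with high Lamp5, and the part of that tissue difference was not tested. Bdnf, the neurotrophin gene, was at 35.0, 30.3 and 35.0 CPM against 23.5, 28.3 and 27.9 CPM (0.33 ± 0.10, adjusted p 0.181).

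The smallest p-values among genes with higher expression belonged to genes with varied roles. Eif5b, a factor that joins ribosomal subunits, was at 83.3, 82.3 and 76.0 CPM in nicotine-sired and at 53.3, 52.7 and 50.03 CPM in saline-sired daughters (0.63 ± 0.10, adjusted p 0.0589). It has 1643 bp of exon opposite Rev1, so its counts are uncertain if strand was not used. Stk39, the kinase SPAK that controls chloride transporters, was at 64.4, 70.9 and 70.6 CPM against 54.1, 55.4 and 50.4 CPM (0.36 ± 0.06, adjusted p 0.0589).

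Eif4g3, a scaffold of translation initiation, was at 203, 198 and 195 CPM in nicotine-sired and at 162, 152 and 144 CPM in saline-sired daughters (0.38 ± 0.07, adjusted p 0.0930). Pla2g5, a secreted phospholipase, was at 1.43, 2.50 and 2.68 CPM against 0.571, 0.314 and 0.714 CPM (2.03 ± 0.34, adjusted p 0.0589; 1.3 with the choroid plexus level in the model). Fap, a cell-surface protease of fibroblasts, was at 1.41, 1.19 and 1.77 CPM against 0.526, 0.251 and 0.417 CPM (1.84 ± 0.35, adjusted p 0.0930). All 5 genes had separate groups. Vwa5b1 and Tspyl5 also had separate groups, with log2 fold changes of 1.16 ± 0.19 and 0.39 ± 0.07.

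Among genes with lower expression, Pdlim2, an actin- and NF-kappaB-linked adaptor, was at 6.61, 6.68 and 7.48 CPM in nicotine-sired and at 10.8, 10.7 and 11.7 CPM in saline-sired daughters (-0.68 ± 0.13, adjusted p 0.0930). Rps6ka4, the chromatin kinase MSK2, was at 34.1, 35.1 and 36.6 CPM against 43.4, 49.0 and 48.5 CPM (-0.41 ± 0.08, adjusted p 0.0930). Both were separate. Of 31 imprinted genes 5 had higher and 3 lower values at an unadjusted p under 0.05, with Meg3, the maternally expressed noncoding RNA, at 210, 144 and 249 CPM against 454, 256 and 331 CPM (-0.79 ± 0.22, adjusted p 0.193). Of 25 DNA methylation and histone enzymes 3 had lower and none higher values at that level. Over all genes 7.23% had higher and 6.65% lower values at that level.

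No gene's fold change differed detectably between the ventral and the dorsal hippocampus of the same daughters. The difference between regions in the fold change, tested over 24 libraries, was past the threshold for 0 of 19849 genes, with 696 (3.51%) at an unadjusted p under 0.05 where higher and lower are both counted. With the animal as a block the count was also 0, with 1364 genes at that level, and DESeq2 gave 0. In the dorsal fit 6 of 19130 genes passed (0.0314%).

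Eml2 was among the genes that fell in the dorsal piece as well, at 104, 110 and 107 CPM in nicotine-sired and 140, 156 and 160 CPM in saline-sired daughters (-0.50 ± 0.07, adjusted p 0.0400). Rbm3 fell there too, at 36.6, 42.1 and 37.3 CPM against 60.2, 75.1 and 63.6 CPM (-0.77 ± 0.09, adjusted p 0.0164). Cirbp had a dorsal log2 fold change of -0.56 ± 0.09 (adjusted p 0.105) and Tsc22d3 one of -0.34 ± 0.12 (adjusted p 0.253). Dorsal and ventral pieces came from the same animals. Dorsal Gm42418 overlapped between groups: saline-sired daughter A had 1280 CPM, below nicotine-sired daughters A and C.

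The fold change in daughters was then set against that in sons, where 617 of 19224 genes passed (3.21%). Each group of daughters and of sons carries its own number in the titles. Differences between the sexes below thus cannot be told apart from differences between such units. The difference between the sexes, tested as an interaction, passed for 205 genes (1.07%), 107 with a more positive (0.557%) and 98 with a more negative (0.51%) fold change in daughters. The count was 123 with the choroid plexus level in the model, 103 without nicotine-sired daughters B and C, and 463 without nicotine-sired son A. It lay between 84 and 124 in each fit that left out a single one of nicotine-sired daughters B and C, saline-sired daughters B and C, nicotine-sired sons B and C and saline-sired sons A, B and C.

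Cirbp and Rbm3 had opposite directions by sex. Cirbp in sons was at 39.3, 49.4 and 45.2 CPM in nicotine-sired and at 23.5, 24.5 and 23.3 CPM in saline-sired animals (0.91 ± 0.08, adjusted p 6.58e-05). The difference, daughters minus sons, was -1.50 ± 0.11 (adjusted p 4.33e-05). Rbm3 in sons was at 65.6, 73.4 and 73.3 CPM against 33.5, 36.8 and 30.4 CPM, and the difference between the sexes was -1.74 ± 0.17 (adjusted p 0.000210). Of the 16 cold-responsive genes 6 had a called difference, all more negative in daughters.

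Eml2 and the clock genes Dbp and Arntl also had opposite directions by sex. Eml2 rose in sons (0.42 ± 0.08, adjusted p 0.00620), and the difference was -0.93 ± 0.11 (adjusted p 0.000654). Dbp rose in sons (0.77 ± 0.14), with a difference of -1.45 ± 0.20 (adjusted p 0.00339), and Arntl fell in sons (-0.33 ± 0.07), with a difference of 0.71 ± 0.10 (adjusted p 0.00415). The adjusted p of the difference in Dbp was 0.0554 without nicotine-sired daughters B and C. In both sexes Arntl and Dbp lay in opposite directions. Of all 20 clock genes 4 had a called difference, 2 in each direction, 8 had opposite signs in the sexes, and the median difference was 0.01.

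Chaperones also differed by sex. Of 19 endoplasmic reticulum chaperones 15, and of 21 cytosolic heat shock genes 13, had a called difference, all more positive in daughters. Hspa5 was at 271, 291 and 273 CPM in nicotine-sired and at 477, 535 and 618 CPM in saline-sired sons (-0.96 ± 0.09, adjusted p 7.09e-05), and its difference was 1.16 ± 0.13 (adjusted p 0.000359). The summed CPM of the endoplasmic reticulum list was 3165 to 3565 in saline-sired sons, 2151 to 2273 in nicotine-sired sons, 2593 to 2792 in nicotine-sired daughters and 2307 to 2360 in saline-sired daughters. Saline-sired sons thus had the highest level of the 4 groups.

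Of the 24 glucocorticoid targets 7 had opposite signs in daughters and sons, against 49% of all genes tested. Tsc22d3 in sons was at 68.6, 82.4 and 89.1 CPM in nicotine-sired and at 136, 150 and 153 CPM in saline-sired animals (-0.87 ± 0.09, adjusted p 0.000110), and the difference of 0.20 ± 0.12 did not pass (adjusted p 0.502). Hif3a had -1.14 ± 0.18 in sons and a difference of 0.03 ± 0.28. Of 24 targets 13 fell in sons (1.39% of all genes did), and 3 had a called difference. Lcn2, which is on this list, was 1 of them, with a difference of 10.0 that came with high values in saline-sired sons. Sgk1, also among them, fell in sons (-0.98 ± 0.12) and not in daughters (difference 0.88 ± 0.17, adjusted p 0.0219). The call for Sgk1 was lost without nicotine-sired daughter B or C or saline-sired son A, without both of these daughters (adjusted p 0.136), with the choroid plexus level in the model (0.0791) and with the letter as a replicate block (0.0508). The list's median was -0.59 in sons.

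Cilia genes, mural genes and the noncoding genes among the 6 calls completed the contrast. Dynlrb2 and Cfap206 had differences of 2.64 ± 0.45 and 1.84 ± 0.35 (adjusted p 0.0118 and 0.0239). The call for Cfap206 was lost in 8 of 12 fits that left out 1 library: nicotine-sired daughters B and C, saline-sired daughters B and C, nicotine-sired sons B and C and saline-sired sons A and B. It was also lost with the choroid plexus level in the model (adjusted p 0.0829), and without nicotine-sired daughters B and C the adjusted p was 0.159 for Cfap206 and 0.0856 for Dynlrb2. Gkn3 rose in sons (2.71 ± 0.26), with a difference of -3.52 ± 0.34 (adjusted p 0.000210). Gm15726 had a difference of -4.23 ± 0.78 (adjusted p 0.0178), while that of G530011O06Rik did not pass (-1.56 ± 0.43, adjusted p 0.107), nor did that of Gm42418 (-0.72 ± 0.18, adjusted p 0.0816). The call for Gm15726 was lost without nicotine-sired son B (adjusted p 0.0710), without nicotine-sired daughters B and C (0.0908) and with the choroid plexus level in the model (0.0550).

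**Figure D4:**
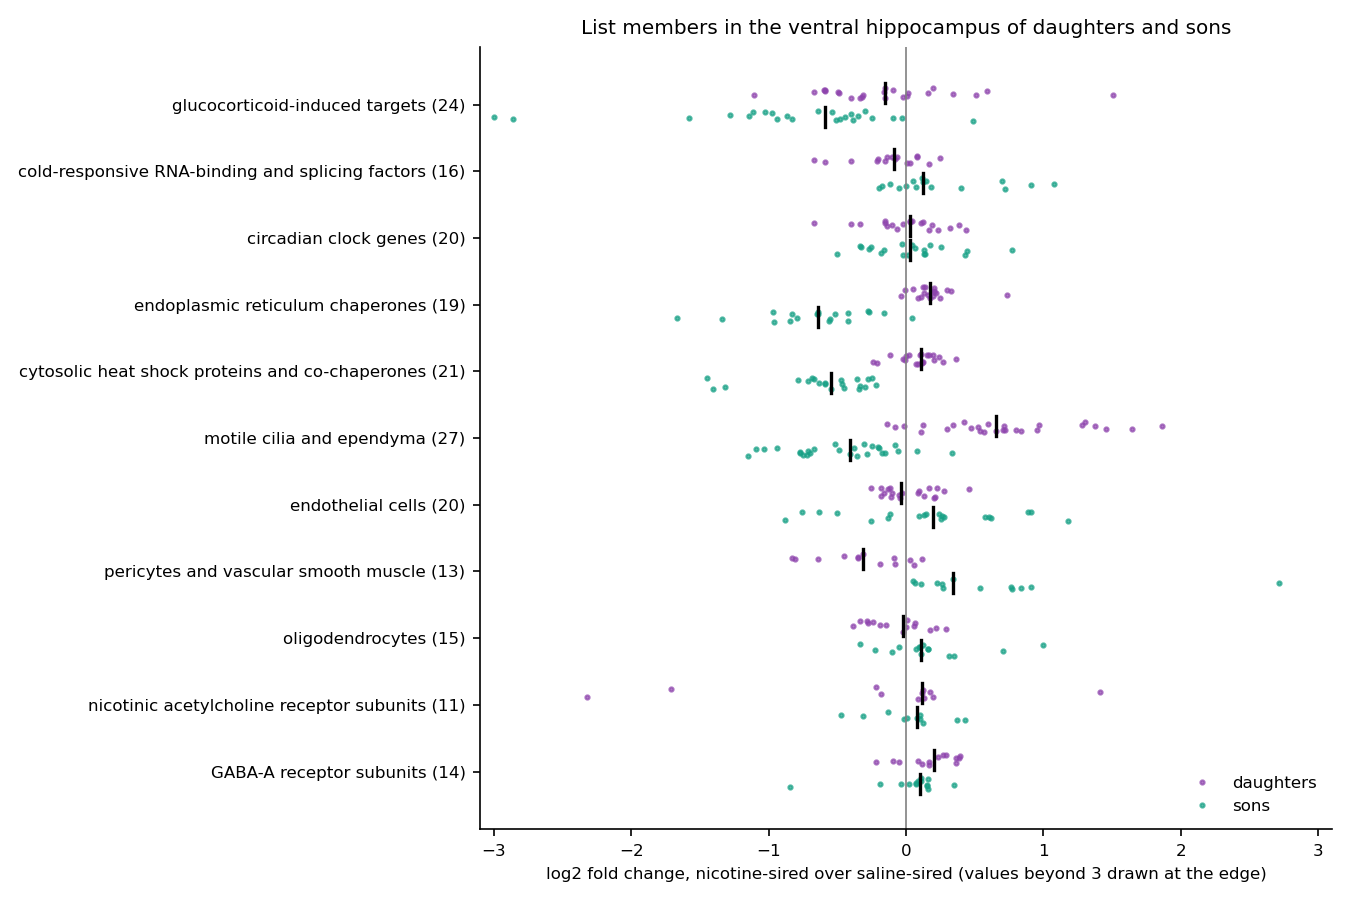
Log2 fold change (nicotine-sired over saline-sired) of each tested member of 11 lists in the ventral hippocampus, daughters in purple and sons in green; black ticks are list medians and numbers in brackets count tested members. Most chaperone members lie right of 0 in daughters (medians 0.17 and 0.11) and left of it in sons, and most glucocorticoid targets lie left in both (medians -0.16 and -0.59).

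**Figure D5:**
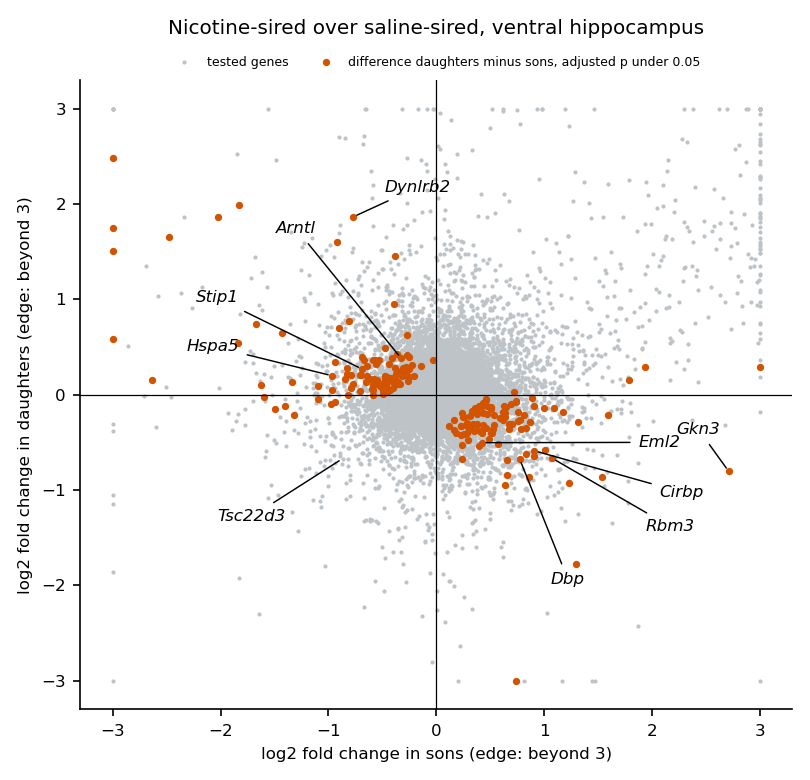
Log2 fold change of each of 19224 genes in daughters (vertical axis) against sons (horizontal axis), with the 205 genes whose difference between the sexes passed the threshold in orange; values beyond 3 are drawn at the edge. The orange genes lie mainly at the upper left and lower right of the origin, which the test of a difference favours, and Tsc22d3 lies lower left among genes without a called difference.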

How the data were processed

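RNA from dorsal and ventral hippocampus went into stranded mRNA libraries, which were read over 3 lanes as single-end reads of 150 bp, per the labels' protocols. Raw counts of 51912 genes per library were deposited by the authors in 1 table. TopHat2 2.1.0, Cufflinks and Cuffdiff 2.2.1.3 are named with the builds mm10 and GRCm38, per the submitters' processing notes; which tool counted the reads, with which strand setting and with which rule for multi-mapped reads, is not given in the sources used here. Symbols, strand and coordinates came from GENCODE M21, which held 51719 of the identifiers; 193 were not matched.

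In R 4.3.3, edgeR 4.0.16 (with limma 3.58.1) scaled the counts by TMM, filtered genes with filterByExpr and ran the robust, two-sided quasi-likelihood test. P-values were adjusted by the Benjamini-Hochberg method across the genes that passed the filter, and 0.05 was the threshold. The 12 ventral libraries entered 1 fit with 4 group means, which also gave the difference between daughters and sons. The difference between regions used all 24 libraries. CPM values were computed from counts and TMM-scaled library sizes, and list levels as means of log2(CPM + 0.5). "Without overlap" or "separate" means that all 3 values of a group lay beyond all 3 of the other.

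The lists and genes were chosen with earlier results of these data known, so their counts are descriptions. Genes open to naming were those called, the 12 smallest p-values in each direction, up to 4 members of a list or all that were called, and 8 of each interaction; not all were named. Genes that show a library apart (such as Lamp5), Rn7sk, Mid1 and other list members were added after their values were seen.

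Settings varied were RLE size factors, no low-count filter, DESeq2 1.42.0, a non-robust fit, replicate or animal blocks, a covariate for the choroid plexus level (mean log2 CPM of its list), the libraries in the fit, and leaving out each animal in turn. Letters in the titles are not known to pair daughters of different sires. The deviations of same-letter libraries correlated at 0.13, 0.19 and -0.01 for A, B and C. Nicotine-sired libraries A and B correlated best with the saline-sired library of their own letter, and C did not. The dorsal and ventral library of 1 animal pair by origin (correlation 0.04 to 0.66, with 4 of 6 best with their own). No libraries were duplicates. The edgeR procedure was tested on simulated data. RefSeq promoter windows (GRCm38.p6) were cut to the 250 bases before the start. Python 3.11.15 with matplotlib 3.10.9 drew the figures.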

Additional observations from a re-analysis of the deposited data

Results flagged for a closer look

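For the following genes the difference between daughters and sons in the log2 fold change (daughters minus sons, ventral hippocampus) passed the interaction test of edgeR with Benjamini-Hochberg adjustment. They are the tested subset of genes named here, not all 205. Among RNA-binding and microtubule genes the difference was -1.50 for Cirbp, -1.74 for Rbm3 and -0.93 for Eml2. Among vessel and iron-uptake genes it was -3.52 for Gkn3 and -1.36 for Tfrc, the transferrin receptor, which rose in sons. Among clock genes it was -1.45 for Dbp and 0.71 for Arntl.

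Endoplasmic reticulum chaperones had differences of 0.94 for Hsp90b1, 0.88 for Pdia3, 1.01 for Pdia6, 1.16 for Hspa5 and 0.84 for Calr. Cytosolic chaperones had 0.96 for Stip1, 0.91 for Hsph1 and 1.03 for Chordc1. Cilia genes had 1.84 for Cfap206 and 2.64 for Dynlrb2. The glucocorticoid target Sgk1 had 0.88, and Gm15726, the noncoding gene opposite Mid1, had -4.23.

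The neutrophil and acute-phase genes Lcn2 (also counted among the glucocorticoid targets), S100a8 and S100a9 had differences of 10.0, 5.93 and 5.18. Lcn2 was at 0.292, 0.199 and 0.0571 CPM in nicotine-sired and at 0.0685, 0 and 0.119 CPM in saline-sired daughters, while saline-sired sons had 19.7, 18 and 9.76 CPM and nicotine-sired sons 0.0733 CPM or less. The difference in Lcn2 thus came with high values in saline-sired sons only among these 12 ventral libraries. S100a8 was at 0.486, 0.227 and 0.228 CPM in nicotine-sired and at 0.0914, 0 and 0.0595 CPM in saline-sired daughters, levels of few counts per library.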

How the results depend on the processing

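The count of 6 called genes in daughters stayed at 6 with RLE size factors and with a non-robust fit. It was 99 with no low-count filter, 276 with DESeq2, 51 with the choroid plexus covariate, 50 without nicotine-sired females B and C, 10 with only the 6 ventral libraries of females, which lost 3 of the 6, and 19 with all 24 libraries in 1 fit, which lost 1. Leaving out single replicates gave 0 to 114. With the letter as a replicate block it was 27, the main 6 among them; letters mark no shared animal, and not every library correlated best with its own letter. The cause of these shifts was not tested.

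The 205 differences between daughters and sons were 530 with DESeq2, 123 with the choroid plexus covariate, 103 without nicotine-sired females B and C and 84 to 463 when single replicates were left out. The 141 with the replicate block, 263 with no filter and the other settings lay within 1.5 times of it. For the regions, the count was 0 in every setting run, the animal block included.

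Signs turned with the choroid plexus covariate for Ttr (-0.12), Kl (-0.48), Aqp1 (-0.047), Kcnj13 (-0.70), Foxj1 (-0.0061) and Chrna7 (-0.23). They turned without nicotine-sired females B and C for Kl (-0.47), Kcnj13 (-0.55) and Chrna7 (-0.30). Ttr, Kl, Aqp1 and Kcnj13, and Folr1, Enpp2 and Col8a1 below, belong to the list whose mean level is the covariate. Their moves with the covariate are thus largely built into that setting. Over the fits that left out 1 replicate, Chrna3 ran from -2.84 to 0.16 and Chrnb4 from -2.27 to 1.86, both turning without saline-sired female C. Chrna4 ran from -0.033 to 0.31 (turning without saline-sired female B), Chrna7 from -0.019 to 0.29 (without saline-sired female A) and Mid1 from -0.005 to 0.089 (without nicotine-sired female A). Fold changes of some other named genes moved by over 1.5 times with the choroid plexus covariate: Folr1 to 0.51, Enpp2 to 0.44, Col8a1 to 0.53, Klf15 to -0.52, Nr3c1 to 0.42, Myh11 to -0.97, Mbp to -0.39, Chrna4 to 0.31, Chrnb4 to -3.17, Ache to -0.52 and Homer1 to 1.10. Without nicotine-sired females B and C, Ciart moved to -0.24. Of 102 genes named or open to naming, 54 were newly called by DESeq2 and 25 with no filter.

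With 3 libraries per group, no list-level exact test can go below 0.1. Genes under about 1 CPM, such as Gm15726 and S100a8, rest on few counts.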

Other observations

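Gene groups outside the comparisons above had these values in the ventral libraries of daughters. Of 13 mitochondrially encoded transcripts none had an unadjusted p under 0.05, although 8 had all nicotine-sired values above all saline-sired ones, and their median log2 fold change was 0.22. The mitochondrial share of all counts was 9.87% to 10.5% in nicotine-sired and 9.70% to 9.89% in saline-sired libraries. Of 13 genes of neurogenesis and proliferation 1 had a higher and 1 a lower value at that level, and 3 had separate groups with lower values, with a median of -0.41. Of 8 CA2 pyramidal cell genes 1 was higher and 1 lower, and of 9 CA3 genes none differed at that level. Of 12 dentate granule cell genes 2 had higher values, with a median of 0.11 that was -0.36 without nicotine-sired daughters B and C. Cdkn1c, an imprinted cell-cycle inhibitor also abundant in choroid plexus, was at 5.79, 6.87 and 7.94 CPM in nicotine-sired and at 3.56, 3.55 and 5.03 CPM in saline-sired daughters (0.76 ± 0.21; 0.39 with the choroid plexus level in the model).

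The summed count of 616 noncoding genes lying opposite 555 abundant coding genes, as a share of the counts of those coding genes, was 0.240% to 0.308% in nicotine-sired and 0.202% to 0.220% in saline-sired ventral libraries of daughters. The 2 ranges did not overlap. In ventral libraries of sons the share was 0.367% to 0.479% in nicotine-sired and 0.192% to 0.232% in saline-sired animals. In dorsal libraries of sons the groups overlapped, with 0.436% in saline-sired son B and 0.208% in nicotine-sired son C. What sets this share in a library was not tested. The set took coding genes with a mean of at least 50 CPM, so G530011O06Rik and Gm15726, opposite Mid1, were not part of it.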
